A study of Mus musculus with 18 samples.

Results

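The RNA levels of 38 genes were examined in E0771 cells, a mouse mammary tumor cell line: the 26 subunits of Mediator outside its kinase module and the 12 subunits of RNA polymerase II. The 38 genes were chosen by name from the known makeup of these complexes, and all 38 were found among the 50686 genes listed in the count tables, of which 50376 carried a symbol. The study used RNA-seq of 18 libraries in 6 groups of 3. All cells carried a CMV-driven Firefly luciferase construct, delivered by lentivirus and selected with puromycin, and a retroviral hairpin vector with mCherry, for which they were sorted. In the cntrl line the hairpin targeted Renilla luciferase, and in the shCdk8-1 and shCdk8-2 lines it targeted Cdk8. Before RNA was taken, cells of every line received either DMSO or Senexin B (SnxB, 1 µM) for 48 h, the latter being an inhibitor of the kinases CDK8 and CDK19. Each line is a single infected and sorted population, so an effect of a hairpin and a difference between populations cannot be told apart. What the replicate numbers stand for is not given in the sources used here, and p-values therefore measure the spread between these libraries, which may be technical.

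Mediator is a large complex that carries signals from DNA-bound transcription factors to RNA polymerase II at promoters. Its head and middle modules contact the polymerase, its tail binds activators, Med14 runs through the complex as a scaffold, and a separable kinase module, built around CDK8 or CDK19 with cyclin C, docks on the middle and hinders contact with the polymerase. RNA polymerase II transcribes all protein-coding genes, and some of its small subunits are also part of RNA polymerases I and III.

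The libraries held 16452260 to 22664693 counts, so that 3 counts in a library correspond to 0.132 to 0.182 CPM, the unit used here for a gene's count scaled to a common library size by TMM. Of the 38 genes, 37 passed the filter on low counts and were tested together with all other genes, 12772 in total. The exception was Polr2k, which encodes a small zinc-binding subunit shared by the 3 polymerases and had 1 to 8 counts per library. A share of 21.6% of its 50-base stretches also lies in transcripts of other genes, and reads that map to several places were left out of the counts, so its low values may not show its level. The same limit applies to Polr2l at 21.0% and Polr2c at 12.04%. Other subunits had smaller shares, among them Polr2h at 8.72% and Med21 at 6.36%. Among markers of cell identity, the summed epithelial markers (Epcam, Cdh1, Krt8, Krt18 and Krt19) lay at or below 0.441 CPM in every cntrl library and between 7.48 and 14.3 CPM in the shCdk8 libraries, most of it Krt8, while Epcam stayed near 0. The fibroblast markers Pdgfra, Pdgfrb, Dcn, Lum and Col1a1 summed to 397 to 731 CPM, leukocyte markers to at most 0.601 CPM, and endothelial markers to 2.72 to 17.9 CPM. The endothelial markers did not move together: Cdh5 fell by 4.35 and 2.86 on the log2 scale in shCdk8-1 and shCdk8-2 cells in DMSO, and Pecam1 rose by 5.59 and 4.31. The cells are labelled triple-negative, yet the estrogen receptor gene Esr1 was at 23.7, 21.5 and 24.1 CPM in the cntrl libraries in DMSO and at 0.658 to 1.54 CPM in the shCdk8 libraries in DMSO. Summed with the other listed receptors, Pgr and Erbb2, the level in DMSO was 78.0 to 79.4 CPM in cntrl cells. That sum was 47.6 to 52.5 CPM in shCdk8-1 and 46.9 to 49.7 CPM in shCdk8-2 cells. Thus the lines differed in more than Cdk8, and in bulk RNA fewer cells with a transcript and less of it per cell cannot be told apart. The part of these line differences in the results below was not tested.

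Cdk8, the hairpin target, was at 58.6, 54.8 and 55.1 CPM in cntrl, at 22.2, 18.7 and 23.4 CPM in shCdk8-1 and at 38.5, 38.9 and 39.2 CPM in shCdk8-2 cells in DMSO. Under SnxB its level was 53.6, 54.0 and 57.3 CPM in cntrl, 24.8, 20.2 and 24.4 CPM in shCdk8-1 and 36.6, 41.6 and 40.3 CPM in shCdk8-2 cells. Each shCdk8 library was below each cntrl library. The log2 fold change in DMSO was -1.38 ± 0.07 (SE, n = 3 per group) in shCdk8-1 and -0.53 ± 0.07 in shCdk8-2 cells, with adjusted p of 2.58e-12 and 1.92e-06 in edgeR's quasi-likelihood test with Benjamini-Hochberg adjustment over all genes tested, the test used for every adjusted p given here. Cdk19, the paralog of Cdk8, was higher by 0.42 ± 0.04 and 0.13 ± 0.04 on the log2 scale (adjusted p = 4.49e-08 and 0.0161).

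The promoters of 6 genes are shown. Med6, Med19, Polr2e, Polr2f and Polr2h were each called higher in every comparison of a shCdk8 line with cntrl. Med15 differed most between the shCdk8 lines. These 6 genes were chosen after their values were seen. In each comparison with cntrl 28.1% to 30.5% of all genes were called higher, and the share called higher in every comparison was not computed. The sequences are RefSeq promoter sequence of GRCm38.p6, cut at the deposited gene model and written 5′ to 3′ on the strand of the gene, with matches to GGGCGG (Sp1) or CCGGAAG (ETS) on either strand in capitals. Med6 lies on the minus strand at chr12:81595009-81595258, Med19 on the plus strand at chr2:84678152-84678401, Polr2e on the minus strand at chr10:80039796-80039909, Polr2f on the plus strand at chr15:79141075-79141324, Polr2h on the plus strand at chr16:20717576-20717664 and Med15 on the minus strand at chr16:17722948-17723197.
Med6: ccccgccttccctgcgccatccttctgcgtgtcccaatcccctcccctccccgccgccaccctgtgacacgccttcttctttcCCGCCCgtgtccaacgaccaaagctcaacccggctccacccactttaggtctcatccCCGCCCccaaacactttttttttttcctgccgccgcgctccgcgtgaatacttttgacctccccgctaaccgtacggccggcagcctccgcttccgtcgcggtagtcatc
Med19: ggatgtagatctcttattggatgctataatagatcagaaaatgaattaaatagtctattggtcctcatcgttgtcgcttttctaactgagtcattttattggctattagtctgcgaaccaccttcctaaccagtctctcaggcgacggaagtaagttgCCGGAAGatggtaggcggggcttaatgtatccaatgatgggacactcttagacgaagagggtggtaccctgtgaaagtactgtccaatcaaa
Polr2e: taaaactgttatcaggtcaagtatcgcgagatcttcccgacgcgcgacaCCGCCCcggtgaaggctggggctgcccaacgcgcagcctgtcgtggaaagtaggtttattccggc
Polr2f: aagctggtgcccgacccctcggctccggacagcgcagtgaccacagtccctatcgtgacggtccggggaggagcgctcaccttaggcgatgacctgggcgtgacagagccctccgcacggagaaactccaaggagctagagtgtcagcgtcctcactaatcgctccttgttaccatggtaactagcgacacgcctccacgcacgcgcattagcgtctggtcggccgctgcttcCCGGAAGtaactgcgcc
Polr2h: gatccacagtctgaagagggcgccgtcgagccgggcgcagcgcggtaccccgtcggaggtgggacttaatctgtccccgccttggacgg
Med15: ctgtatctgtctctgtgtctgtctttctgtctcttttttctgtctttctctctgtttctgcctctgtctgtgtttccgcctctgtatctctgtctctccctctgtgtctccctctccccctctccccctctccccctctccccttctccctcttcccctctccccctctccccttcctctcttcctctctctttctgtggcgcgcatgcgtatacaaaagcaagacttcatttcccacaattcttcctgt

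The stretch shown for Med15 is mostly CT-rich repeats and has no match to either motif, those of Med19 and Polr2f hold the ETS letters 92 and 17 bases before the start, and that of Med6 holds the Sp1 letters at 167 and 110 bases before the start. The whole RefSeq windows, which run on past the start, do hold CCGGAAG for Med15 and Med6 and GGGCGG for Polr2h, outside the stretches shown. RefSeq promoter windows, from 250 bases before to 50 after each start, were matched for 31 of the 38 genes, giving 36 promoters. CCGGAAG was found in 12 of these 36 (33.3%), among them Med4, Med10, Med14 and Polr2j, against 17.9% of 12074 promoters of tested genes and 8.86% of all 32851 promoters. GGGCGG was found in 61.1% of member promoters and in 62.2% of those of tested genes. TATAAA was found in 13.9%, against 7.24%, and CACGTG in 11.1%, against 9.98%. TGACGTCA was in 2.78%, against 3.11%, and the longer motifs of NRF1 and YY1 were in 0 member promoters, against 2.05% and 2.08%. The letters of a motif may overlap with those of others, and no binding was measured.

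In cntrl cells in DMSO the subunits spanned a wide range of RNA levels when compared per kilobase of exon (the plot of levels per length). The highest were Polr2f, a small subunit shared by the 3 polymerases, with 93.7 ± 6.25 CPM per kb (SD, n = 3), and Polr2a, the largest and catalytic subunit, with 86.7 ± 2.10 CPM per kb. These libraries overlapped. Next came Polr2g, a stalk subunit, with 55.6 ± 3.39 CPM per kb, Med10 of the middle module with 48.5 ± 3.97, Polr2d, the partner of Polr2g in the stalk, with 48.4 ± 1.91, and Polr2b, the second-largest subunit, with 43.0 ± 0.60. The polymerase-specific subunits had a median of 43.0 CPM per kb, the shared subunits 14.8, the Mediator middle 14.2, the head 12.7, the tail 12.1, the subunits between head and tail 8.09 and the scaffold Med14 7.64. The median over all 38 genes was 13.4 CPM per kb and that over all genes tested 7.65, and 65.0% of tested genes lay under the median subunit. Of the 37 pairs of neighbors in the order of levels, 24 had overlapping libraries and are not ranked by these data. The lowest of the tested subunits were Polr2c, Med29 and Polr2l at 5.57, 4.80 and 2.08 CPM per kb, a 45.0-fold distance from Polr2f to Polr2l.

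**Figure D1:**
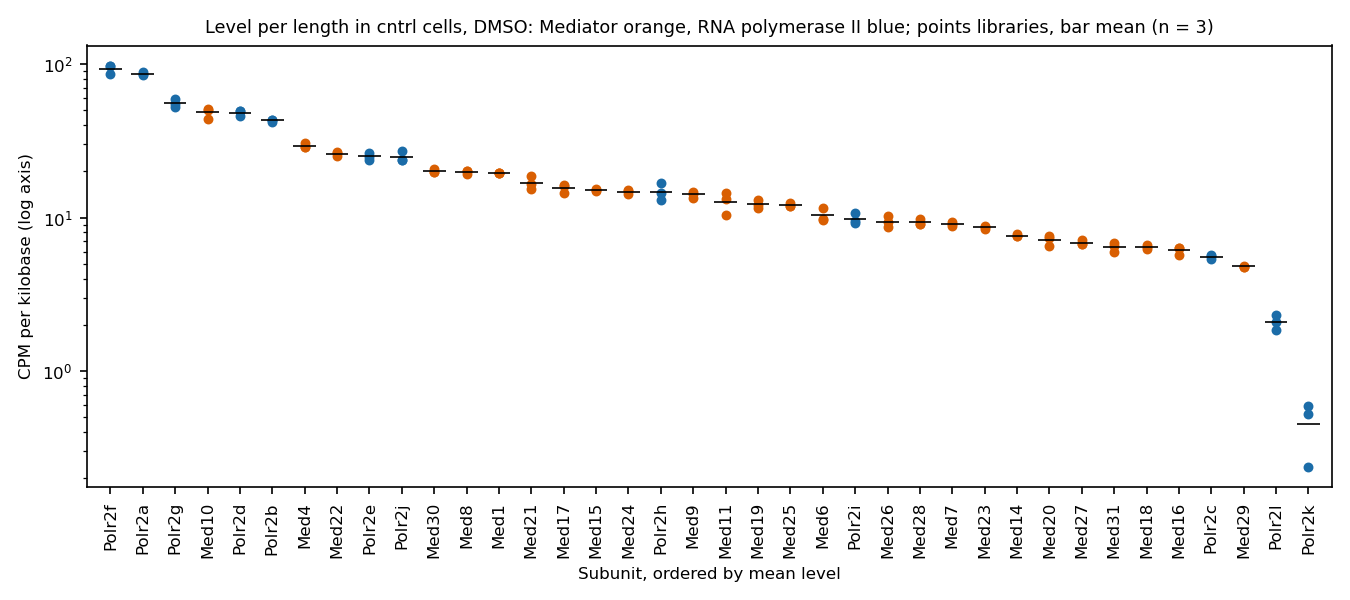
RNA level per kilobase (CPM per kb, log axis) of each Mediator (orange) and RNA polymerase II (blue) subunit in cntrl cells in DMSO, with the 3 libraries as points and their mean as a bar. Polr2f and Polr2a lead at 93.7 and 86.7, the Mediator subunits lie mostly between 5 and 30, and Polr2k is at 0.450.

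Across the 6 groups most subunits moved little. For the 37 tested subunits the ratio of the highest to the lowest group mean had a median of 1.19, and it was under 1.3 for 23 of them. It was over 1.5 for Polr2h (1.64), Med15 (1.63) and Med6 (1.60). Within groups the coefficient of variation had a median of 4.74% (1.56% to 12.7%).

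The comparison of shCdk8 lines with cntrl asks how expression differs in lines with partly reduced Cdk8 RNA. In DMSO a smaller share of Mediator and polymerase subunits than of all genes was called. By direction, the share was smaller only among genes called lower, and the changes were small. In shCdk8-1 cells 16 of 37 (43.2%) passed an adjusted p of 0.05, against 59.6% of all genes tested, 13 of them higher (35.1%, against 30.1% of all genes) and 3 lower (8.11%, against 29.5%). In shCdk8-2 cells the count was also 16 of 37, against 57.1%, with 13 higher (29.0% of all genes) and 3 lower (28.1%). The median absolute log2 fold change of the subunits was 0.13 and 0.11, that of all genes 0.27 and 0.24, and 0 subunits changed more than 2-fold, against 12.5% and 11.0% of all genes. Both comparisons share the cntrl libraries.

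**Figure D2:**
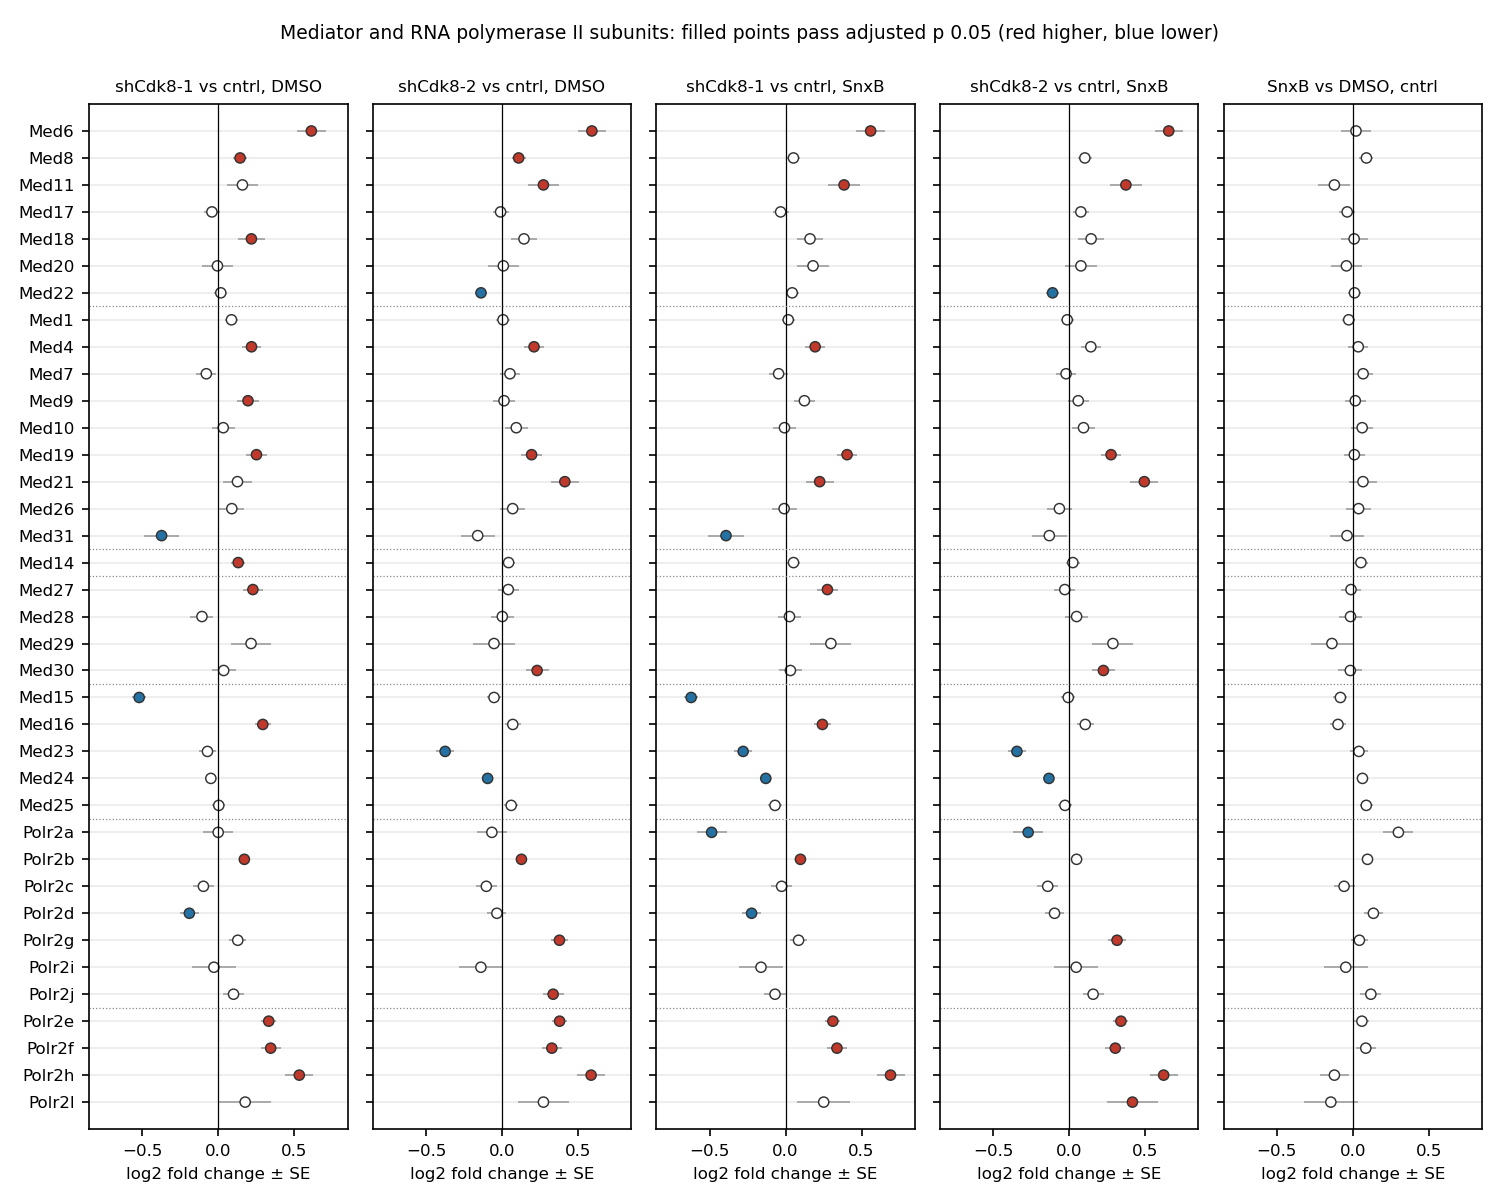
Log2 fold change ± SE of the 37 tested subunits in 5 comparisons (columns, n = 3 libraries per group), with dotted lines between modules in the order head, middle, scaffold, head-tail, tail, polymerase-specific and shared. Filled points passed an adjusted p of 0.05 (red higher, blue lower): 16, 16, 17 and 14 in the shCdk8 comparisons and 0 for SnxB in cntrl cells.

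In the head module, which contacts the polymerase, 3 of 7 subunits rose in shCdk8-1 cells and 3 rose while Med22 fell in shCdk8-2 cells. Of all genes tested, 30.1% and 29.0% were called higher in these lines and 29.5% and 28.1% lower. Med6, a conserved head subunit next to the middle module, was at 13.9, 14.3 and 16.7 CPM in cntrl, at 22.6, 22.9 and 23.4 CPM in shCdk8-1 and at 23.6, 20.4 and 23.8 CPM in shCdk8-2 cells in DMSO. Its libraries did not overlap between cntrl and either shCdk8 line. Its log2 fold change was 0.61 ± 0.09 (adjusted p = 1.23e-05) in shCdk8-1 and 0.59 ± 0.09 (adjusted p = 2.03e-05) in shCdk8-2 cells. Med8 rose by 0.14 ± 0.05 and 0.11 ± 0.05, Med18 passed in shCdk8-1 (0.22 ± 0.09, with 0.14 ± 0.09 in shCdk8-2) and Med11 in shCdk8-2 (0.27 ± 0.10, with 0.16 ± 0.10 in shCdk8-1), and for neither did the difference between the lines pass. Med17, the core of the head, and Med20 did not pass, with log2 fold changes between -0.04 and 0.01.

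The middle module had 3 of 9 subunits higher in each line (30.1% and 29.0% of all genes) and Med31 lower in shCdk8-1 cells (29.5%). Med19, which helps to join Mediator to the polymerase, was at 24.9, 23.9 and 26.9 CPM in cntrl, at 30.0, 30.4 and 29.8 CPM in shCdk8-1 and at 29.6, 28.1 and 29.0 CPM in shCdk8-2 cells. Both shCdk8 lines lay above cntrl in all libraries, with log2 fold changes of 0.25 ± 0.07 (adjusted p = 0.00296) and 0.19 ± 0.07 (adjusted p = 0.0175). Med4 rose by 0.22 ± 0.07 and 0.21 ± 0.06. Med21, a partner of Med7 in the hinge of the module, was at 54.2, 58.7 and 65.4 CPM in cntrl, at 67.6, 64.4 and 62.8 CPM in shCdk8-1 and at 81.3, 71.2 and 85.4 CPM in shCdk8-2 cells. Only the shCdk8-2 libraries were separate from cntrl, and their log2 fold change was 0.41 ± 0.09 (adjusted p = 0.000667), against 0.13 ± 0.09 (adjusted p = 0.258) in shCdk8-1. With the length index described below as a covariate, the shCdk8-2 value was 0.25 (adjusted p = 0.00704). Med31, a small conserved subunit, was at 10.3, 11.8 and 11.3 CPM in cntrl, at 8.98, 7.81 and 9.04 CPM in shCdk8-1 and at 9.71, 8.32 and 12.1 CPM in shCdk8-2 cells. It fell by 0.37 on the log2 scale in shCdk8-1 cells (SE 0.12, adjusted p = 0.0088), while the shCdk8-2 libraries overlapped with cntrl.

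Med1, the middle subunit that binds nuclear receptors, was at 172, 172 and 170 CPM in cntrl, at 182, 185 and 178 CPM in shCdk8-1 and at 173, 170 and 174 CPM in shCdk8-2 cells. Its shCdk8-1 libraries were all above cntrl, yet the log2 fold change of 0.09 ± 0.04 did not pass (adjusted p = 0.0988), and that in shCdk8-2 was 0.01 ± 0.04. The scaffold Med14 was at 68.1, 66.1 and 66.8 CPM in cntrl, at 74.1, 75.6 and 70.3 CPM in shCdk8-1 and at 68.8, 67.1 and 71.2 CPM in shCdk8-2 cells. It rose by 0.13 ± 0.04 in shCdk8-1 (adjusted p = 0.016), a call that was lost without cntrl replicate 2 (adjusted p = 0.0539) or without shCdk8-1 replicate 2 (adjusted p = 0.0843). Among the 4 subunits between head and tail, Med27 rose by 0.23 ± 0.07 in shCdk8-1 and Med30 by 0.23 ± 0.08 in shCdk8-2 cells.

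Of the 5 subunits of the tail, which binds activators, 1 fell in shCdk8-1 and 2 fell in shCdk8-2 cells (29.5% and 28.1% of all genes). In shCdk8-1 cells 1 rose (30.1% of all genes), and in shCdk8-2 cells 0 rose (29.0%). Med15, a target of several activators including those of lipid synthesis genes, was at 50.1, 51.3 and 52.2 CPM in cntrl, at 35.2, 35.8 and 36.2 CPM in shCdk8-1 and at 47.1, 51.6 and 49.8 CPM in shCdk8-2 cells. Its shCdk8-1 libraries lay well below all others, with a log2 fold change of -0.52 ± 0.05 (adjusted p = 8e-09), and its shCdk8-2 libraries overlapped with cntrl (-0.05 ± 0.05, adjusted p = 0.35). Med23, a subunit bound by activators of growth signaling, was at 57.8, 59.1 and 56.3 CPM in cntrl, at 52.7, 58.1 and 54.0 CPM in shCdk8-1 and at 42.5, 47.0 and 44.2 CPM in shCdk8-2 cells. Here shCdk8-2 lay below all others (-0.37 ± 0.06, adjusted p = 1.44e-05), whereas the change in shCdk8-1 was -0.07 ± 0.06 (adjusted p = 0.295). The Med23 value in shCdk8-2 was -0.27 (adjusted p = 4.83e-05) with the length index described below as a covariate. Med16 rose by 0.29 ± 0.05 in shCdk8-1 cells (adjusted p = 8.25e-05), Med24 fell by 0.09 in shCdk8-2 cells (adjusted p = 0.0212), and Med25 did not pass in either.

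Of the 7 polymerase-specific subunits, Polr2b rose and Polr2d fell in shCdk8-1 cells, and Polr2b, Polr2g and Polr2j rose in shCdk8-2 cells. The shares of all genes called higher were 30.1% and 29.0%, and those called lower 29.5% and 28.1%. Polr2a was at 629, 599 and 610 CPM in cntrl, at 550, 730 and 557 CPM in shCdk8-1 and at 563, 592 and 600 CPM in shCdk8-2 cells. The groups overlapped, and its log2 fold changes were 0.00 ± 0.10 (adjusted p = 0.993) and -0.07 ± 0.10 (adjusted p = 0.595). Polr2g of the stalk was at 45.6, 47.7 and 51.4 CPM in cntrl, at 53.3, 51.7 and 53.3 CPM in shCdk8-1 and at 63.8, 59.6 and 64.9 CPM in shCdk8-2 cells. Its rise in shCdk8-2 was 0.38 ± 0.06 (adjusted p = 8.98e-06), and the value in shCdk8-1 was 0.13 ± 0.06 (adjusted p = 0.0618). The rise in shCdk8-2 was 0.28 (adjusted p = 4.21e-05) with the length index described below as a covariate. Polr2d, which pairs with Polr2g, fell by 0.19 in shCdk8-1 cells (adjusted p = 0.0126) and was at -0.03 ± 0.06 in shCdk8-2.

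Of the subunits shared by the 3 polymerases, 3 of the 4 tested rose in each line (30.1% and 29.0% of all genes), and their median log2 fold change was 0.34 in shCdk8-1 and 0.35 in shCdk8-2 cells, against 0.01 over all genes in both. Polr2h was at 19.0, 20.9 and 24.3 CPM in cntrl, at 30.5, 31.2 and 31.6 CPM in shCdk8-1 and at 33.6, 30.5 and 32.7 CPM in shCdk8-2 cells. Its log2 fold change was 0.53 ± 0.09 (adjusted p = 4.37e-05) and 0.59 ± 0.09 (adjusted p = 1.5e-05), with no overlap between cntrl and either line. Polr2e, at the jaw that grips downstream DNA, was at 63.1, 70.7 and 66.6 CPM in cntrl, at 82.0, 83.1 and 87.3 CPM in shCdk8-1 and at 87.7, 83.0 and 90.2 CPM in shCdk8-2 cells. Each shCdk8 library again exceeded each cntrl library, and the log2 fold change was 0.33 ± 0.05 (adjusted p = 7.79e-06) and 0.38 ± 0.05 (adjusted p = 1.53e-06). Polr2f was at 47.0, 53.2 and 52.5 CPM in cntrl, at 62.5, 65.1 and 66.5 CPM in shCdk8-1 and at 62.9, 63.8 and 65.4 CPM in shCdk8-2 cells, which gave 0.34 ± 0.07 (adjusted p = 0.000136) and 0.33 ± 0.07 (adjusted p = 0.000245). The remaining member, Polr2l, had 3.04 to 4.65 CPM and did not pass (0.18 ± 0.17 and 0.27 ± 0.17). With the length index described below as a covariate, the values in shCdk8-1 and shCdk8-2 cells in DMSO were 0.48 and 0.43 for Polr2h, 0.31 and 0.31 for Polr2e and 0.31 and 0.23 for Polr2f, and these calls remained.

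**Figure D3:**
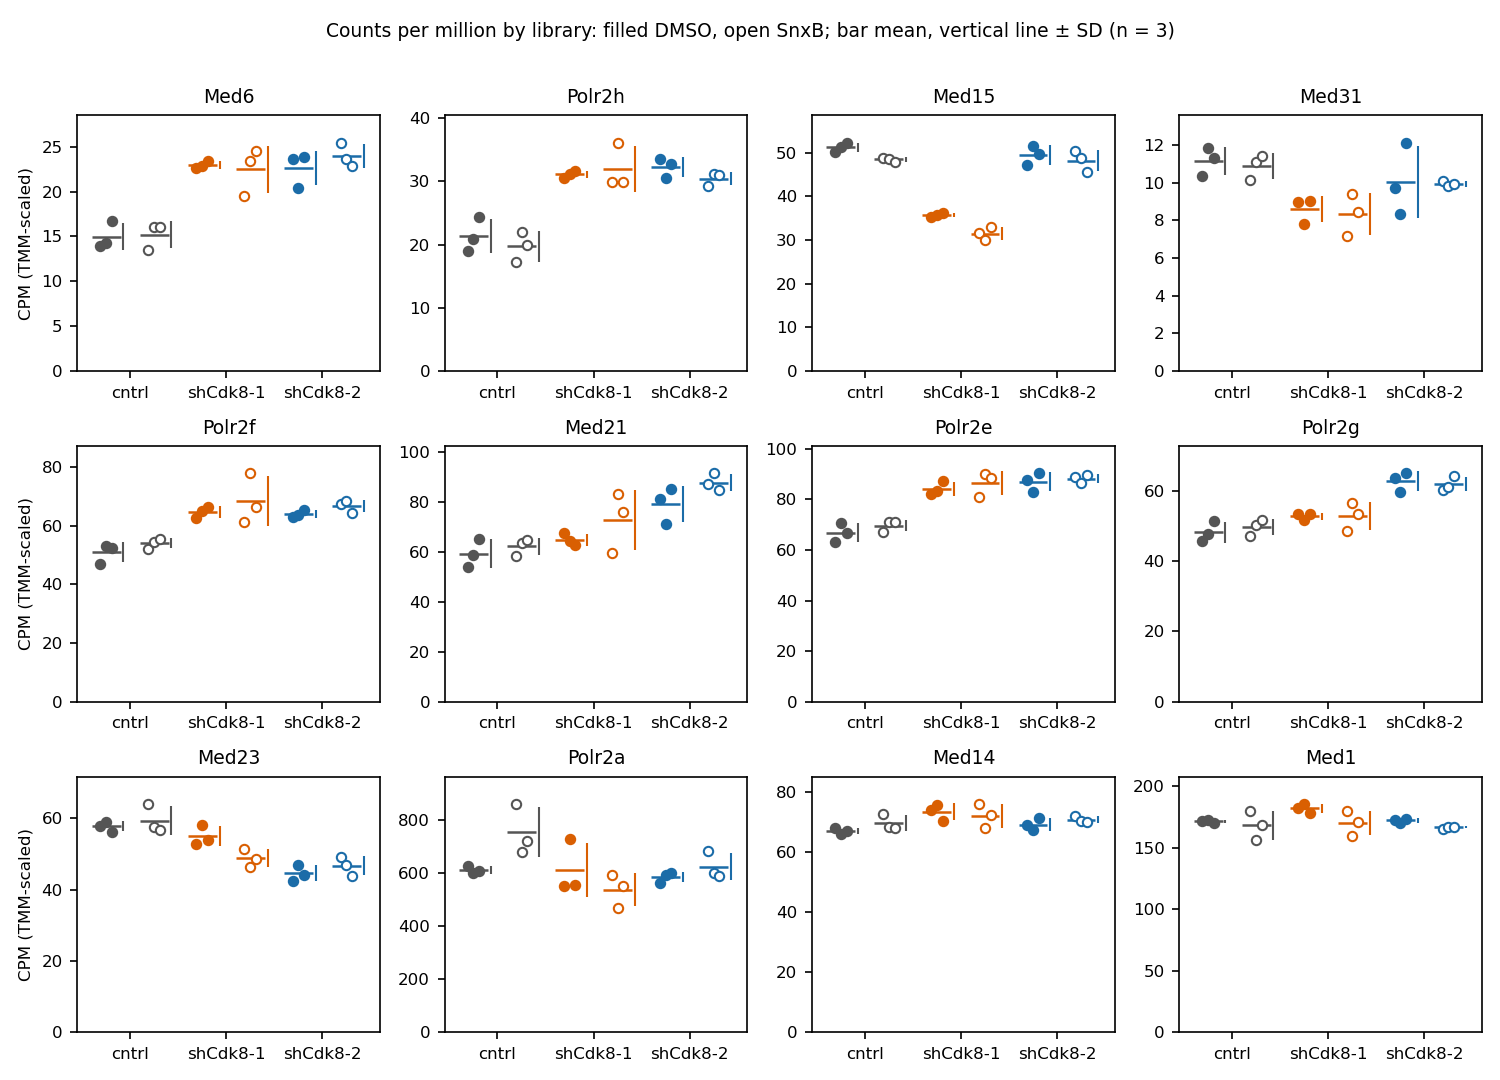
CPM of 12 subunits in each library, by line and with DMSO filled and SnxB open, the bar being the mean and the vertical line ± SD (n = 3). Med6, Polr2h, Polr2f and Polr2e are higher in both shCdk8 lines, Med15 is lower in shCdk8-1 alone with 35.2 to 36.2 CPM in DMSO, and Med23 is lowest in shCdk8-2 in DMSO with 42.5 to 47.0 CPM.

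The same contrasts under SnxB rest on 9 other libraries. In shCdk8-1 cells 17 of 37 subunits were called (60.6% of all genes), 11 higher (30.5%) and 6 lower (30.1%), and in shCdk8-2 cells 14 of 37 (56.7%), 10 higher (28.1%) and 4 lower (28.6%). With library totals in place of TMM the split in shCdk8-2 cells was 17 higher and 1 lower, and the matching split of all genes is not given here. In each line 12 of 37 subunits were called the same way in DMSO and under SnxB, 9 of them higher, against 51.3% of all genes in shCdk8-1 and 49.4% in shCdk8-2 cells. For shCdk8-1 these were Med4, Med6, Med15, Med16, Med19, Med27, Med31, Polr2b, Polr2d, Polr2e, Polr2f and Polr2h. For shCdk8-2 they were Med6, Med11, Med19, Med21, Med22, Med23, Med24, Med30, Polr2e, Polr2f, Polr2g and Polr2h.

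Under SnxB, Med6 was at 13.5, 16.01 and 16.1 CPM in cntrl, at 19.5, 23.4 and 24.5 CPM in shCdk8-1 and at 25.4, 23.6 and 22.9 CPM in shCdk8-2 cells. Polr2h was at 17.2, 22.0 and 19.9 CPM in cntrl, at 29.9, 36.1 and 29.8 CPM in shCdk8-1 and at 29.2, 31.1 and 31.0 CPM in shCdk8-2 cells. For both genes all shCdk8 libraries lay above all cntrl libraries. The log2 fold changes were 0.56 ± 0.09 and 0.65 ± 0.09 for Med6 and 0.69 ± 0.09 and 0.62 ± 0.09 for Polr2h, with adjusted p between 1.91e-06 and 3.4e-05. Polr2e was at 67.0, 71.0 and 71.0 CPM in cntrl, at 81.0, 89.96 and 88.5 CPM in shCdk8-1 and at 88.8, 86.4 and 89.5 CPM in shCdk8-2 cells. Polr2f was at 52.1, 54.6 and 55.5 CPM in cntrl, at 61.3, 77.8 and 66.3 CPM in shCdk8-1 and at 67.4, 68.3 and 64.5 CPM in shCdk8-2 cells. These groups did not overlap with cntrl either. Polr2e (0.31 ± 0.05 and 0.34 ± 0.05), Polr2f (0.34 ± 0.07 and 0.30 ± 0.07) and Med19 (0.40 ± 0.07 and 0.28 ± 0.07) also rose, and Polr2l passed in shCdk8-2 (0.42 ± 0.17, adjusted p = 0.044). Med15 was at 48.8, 48.6 and 47.9 CPM in cntrl, at 31.5, 30.0 and 32.9 CPM in shCdk8-1 and at 50.3, 48.7 and 45.6 CPM in shCdk8-2 cells. As in DMSO it was lower in shCdk8-1 (-0.62 ± 0.05, adjusted p = 7.43e-10) and not in shCdk8-2 (-0.01 ± 0.05, adjusted p = 0.922).

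Med23 under SnxB was at 64.0, 57.6 and 56.6 CPM in cntrl, at 51.5, 46.4 and 48.6 CPM in shCdk8-1 and at 49.3, 46.8 and 44.0 CPM in shCdk8-2 cells. It fell in both lines, by 0.28 (adjusted p = 0.000295) and by 0.34 (adjusted p = 3.69e-05) on the log2 scale. These changes were -0.16 (adjusted p = 0.013) and -0.20 (adjusted p = 0.00278) with the length index described below as a covariate. Med21 was at 58.5, 63.7 and 64.8 CPM in cntrl, at 59.6, 83.1 and 76.0 CPM in shCdk8-1 and at 87.2, 91.5 and 84.7 CPM in shCdk8-2 cells. Its rise in shCdk8-2 (0.49 ± 0.09, adjusted p = 0.000102) was separate from cntrl, while that in shCdk8-1 (0.22 ± 0.09, adjusted p = 0.0416) was not. The latter call was lost with the length index described below as a covariate (0.022, adjusted p = 0.837), with only the groups compared in the fit (adjusted p = 0.0911) and, with adjusted p of 0.0501 to 0.291, without any one of 7 libraries: cntrl replicate 2, shCdk8-1 replicate 3 or shCdk8-2 replicate 1 in DMSO, or cntrl replicate 1 or 2 or shCdk8-1 replicate 2 or 3 under SnxB. Med31 was at 10.1, 11.1 and 11.4 CPM in cntrl, at 7.15, 9.39 and 8.41 CPM in shCdk8-1 and at 10.1, 9.79 and 9.93 CPM in shCdk8-2 cells. It was lower in shCdk8-1 (-0.39 ± 0.12, adjusted p = 0.00685), which without shCdk8-1 replicate 1 under SnxB became -0.28 (adjusted p = 0.0578). Polr2g was at 47.2, 50.3 and 51.8 CPM in cntrl, at 48.5, 56.5 and 53.5 CPM in shCdk8-1 and at 60.3, 61.2 and 64.3 CPM in shCdk8-2 cells, and it rose in shCdk8-2 (0.31 ± 0.06, adjusted p = 7.51e-05). For this rise the length index as a covariate gave 0.19 (adjusted p = 0.00666). Med14 and Med1 did not pass under SnxB in either line, with log2 fold changes between -0.01 and 0.05 and group ranges of 67.8 to 75.8 CPM for Med14 and 157 to 180 CPM for Med1 over the 9 libraries.

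SnxB against DMSO asks for the effect of kinase inhibition, and here 0 of 37 subunits were called in cntrl cells (5.54% of all genes), 0 in shCdk8-1 cells (1.48%) and 0 in shCdk8-2 cells (2.05%). By edgeR's unadjusted p under 0.05 the counts were 3 (Polr2a, Polr2b and Polr2d), 5 (Med1, Med15, Med16, Med19 and Med23) and 0, against 17.6%, 14.5% and 12.3% of all genes, and DESeq2 called 0 in each. In cntrl cells the log2 fold changes ran from -0.14 to 0.30, and the 95% interval lay within a 1.3-fold change either way for 34 of 37 subunits, as it did for 34 in shCdk8-1 and 35 in shCdk8-2 cells. Med15 had the smallest adjusted p in shCdk8-1 cells, at -0.18 ± 0.05 (adjusted p = 0.0729). The interaction of SnxB with a shCdk8 line was called for 0 subunits in either line by edgeR and by DESeq2, against 0.305% and 0.0548% of all genes by edgeR, and 2 (Polr2a and Med23) and 0 subunits had an unadjusted p under 0.05, against 9.9% and 5.86% of all genes.

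The subunit with the largest value for SnxB in cntrl cells was Polr2a. Its levels under SnxB were 860, 681 and 722 CPM in cntrl, 591, 470 and 553 CPM in shCdk8-1 and 685, 602 and 589 CPM in shCdk8-2 cells. All cntrl libraries under SnxB lay above those in DMSO, but the log2 fold change of 0.30 ± 0.10 did not pass (adjusted p = 0.0906). Under SnxB the shCdk8 lines were lower than cntrl, by 0.49 in shCdk8-1 (adjusted p = 0.000274) and by 0.27 in shCdk8-2 (adjusted p = 0.0256), and the interaction with shCdk8-1 was -0.49 ± 0.14 (adjusted p = 0.253). The shCdk8-2 call was lost without cntrl replicate 1 under SnxB (-0.17, adjusted p = 0.159) and without shCdk8-2 replicate 2 or replicate 3 under SnxB (adjusted p = 0.0937 and 0.111), and also with DESeq2 (adjusted p = 0.0717), library totals in place of TMM (adjusted p = 0.0556) or a loess correction for gene length (adjusted p = 0.0612).

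Polr2a and several other subunits moved with a property of the library. A length index was computed as the median log2 deviation of the longest 20% of tested genes, of at least 6886 bases, minus that of the shortest 20%, of at most 2059 bases. It ran from -0.19 in shCdk8-1 replicate 2 under SnxB to 0.23 in cntrl replicate 1 under SnxB, and in 5 of 6 groups the library with the highest index also had the highest Polr2a, a gene of 7067 exonic bases. The index also differed between lines, with group means of 0.060 in cntrl, 0.015 in shCdk8-1 and -0.069 in shCdk8-2 cells in DMSO and of 0.091, -0.069 and -0.087 under SnxB. Over the 18 libraries, with the group mean taken from both measures, Pearson's r of log2 CPM with the index was 0.90 for Polr2a, 0.84 for Med14, 0.83 for Med1 and 0.82 for Med23, genes of 6692 to 8763 exonic bases. Other long subunits had lower values: 0.52 for Med24, 0.09 for Med25 and -0.29 for Med20, of 6528 to 7629 exonic bases. Pearson's r was -0.84 for Med8, -0.82 for Med30, -0.79 for Polr2g, -0.74 for Polr2h, -0.72 for Med10, -0.71 for Med21, -0.70 for Polr2f and -0.69 for Polr2e. Med8, Med21 and Polr2e, of 3001, 3523 and 2670 exonic bases, were not among the shortest 20%. The values are a description over libraries that also enter the index. With the index as a covariate, an alternative chosen after seeing the data, the change of Polr2a by SnxB in cntrl cells was 0.24 (adjusted p = 0.0018), that of shCdk8-1 under SnxB -0.21 (adjusted p = 0.0035) and that of shCdk8-2 under SnxB 0.039 (adjusted p = 0.621). What sets the index in a library was not tested.

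**Figure D4:**
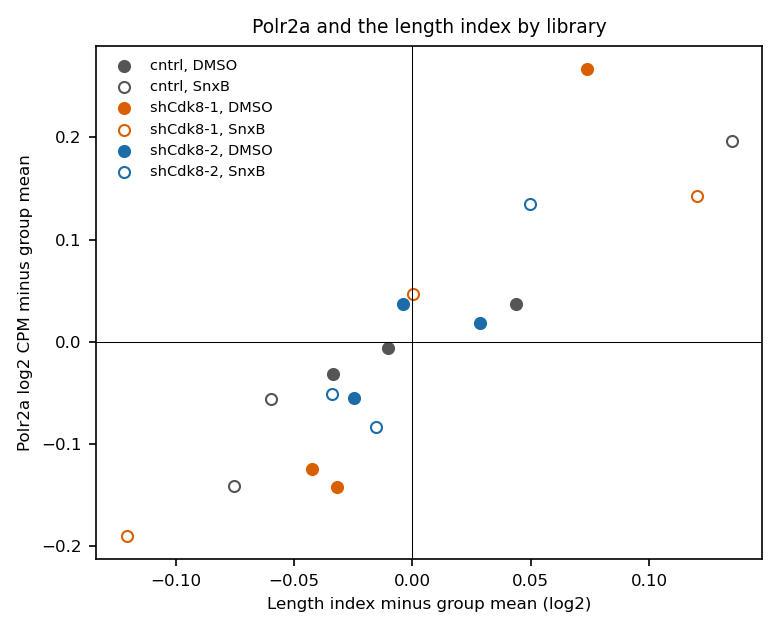
Polr2a level (log2 CPM minus the group mean) against the length index minus its group mean (log2) for the 18 libraries, by line and treatment. Libraries with a higher index than their group have more Polr2a, and the highest index in 5 of 6 groups goes with the highest Polr2a.

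Direct comparison of the shCdk8 lines in DMSO called 7 of 37 subunits (21.1% of all genes). In shCdk8-2, 4 were higher and 3 lower (10.8% and 8.11% of subunits), against 1427 and 1266 of all 12772 genes. After a loess correction for gene length 3 were higher and 6 lower, and the matching split of all genes is not given here. Med15 differed most (0.47 ± 0.05, adjusted p = 4.84e-07), followed by Med23 (-0.30 ± 0.06, adjusted p = 0.000752), Polr2g (0.25 ± 0.06, adjusted p = 0.00278) and Med16 (-0.22 ± 0.05, adjusted p = 0.00464). Med22, Polr2j and Med21 followed with -0.15, 0.24 and 0.29. The call of Med21 was lost without replicate 2 or 3 of shCdk8-1 or replicate 1 or 3 of shCdk8-2 in DMSO (adjusted p = 0.0697 to 0.139). It was also lost with the length index as a covariate (0.18, adjusted p = 0.0595). With that covariate Med23 was at -0.24 (adjusted p = 0.00042) and Polr2g at 0.19 (adjusted p = 0.0033). For Med6, Polr2e, Polr2f and Polr2h the difference between the lines was between -0.02 and 0.05, with an SE of at most 0.09.

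Some subunits moved together with the genes around them. Med6 lies at chr12:81573557-81595008, and the 20 nearest tested genes, over 3.66 Mb, had a median log2 fold change of 0.60 in shCdk8-1 cells in DMSO, with 20 of 20 above 0, and of 0.47 in shCdk8-2 cells, with 18 of 20 above 0. Only 0.987% and 1.64% of genes had neighbors with a median that high. Polr2h lies at chr16:20717665-20722267, and its 20 neighbors over 1.46 Mb had medians of 0.44 (18 of 20 above 0) and 0.34 (14 of 20), reached by 2.87% and 4.82% of genes. Under SnxB the medians were 0.59 and 0.47 around Med6 and 0.46 and 0.38 around Polr2h. The neighbors of Polr2e, Polr2f and Med19 had medians of 0.10, 0.09 and -0.03 in shCdk8-1 and of 0.03, 0.08 and -0.01 in shCdk8-2 cells in DMSO. Those of Med15 had medians of -0.02 and 0.32. Around Med26, a middle subunit that recruits elongation factors, the neighbors were lower, at -0.39 and -0.32, while Med26 itself was at 0.09 ± 0.08 and 0.07 ± 0.08. Around Polr2d they were at -0.39 (0 of 20 above 0) and -0.42 (2 of 20), with Polr2d at -0.19 and -0.03. Those of Polr2g had medians of 0.02 and 0.25, and those of Med16 0.24 and 0.13. Pearson's r between a subunit's log2 fold change and its neighbor median was 0.55 and 0.48 over the 37 subunits. Over all genes it was 0.19 and 0.20. Why neighboring genes moved was not tested.

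**Figure D5:**
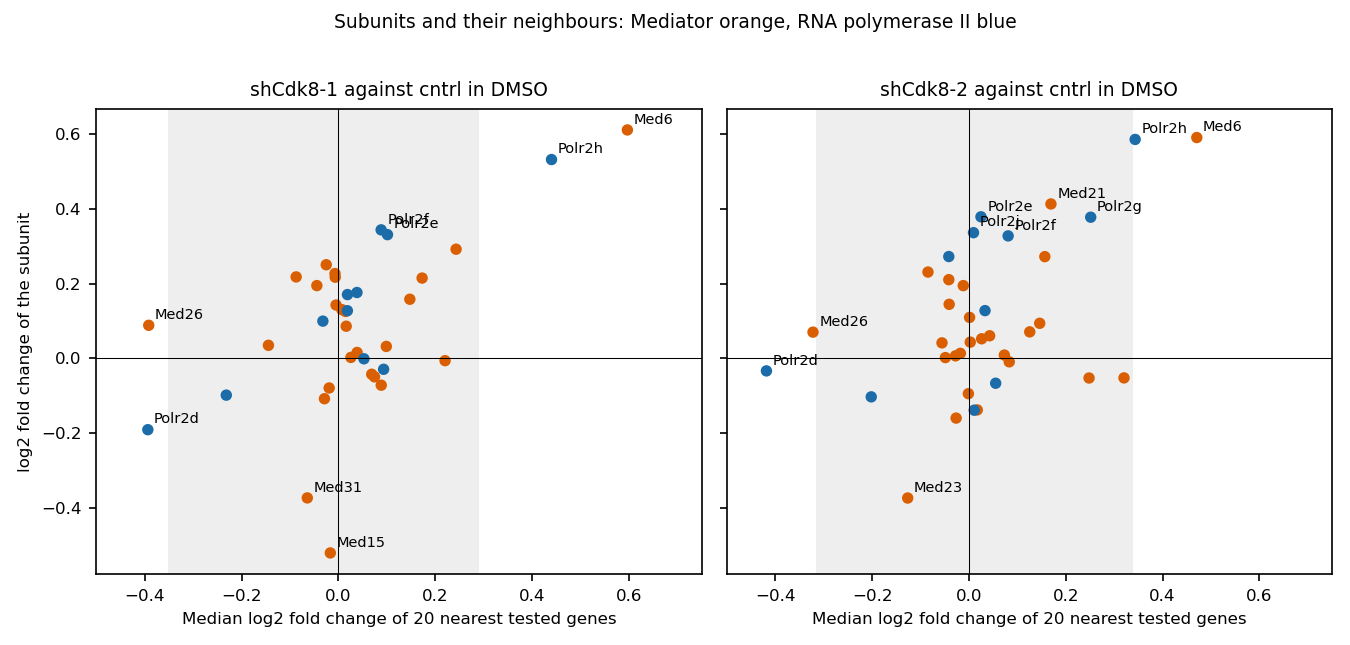
Log2 fold change of each tested subunit against the median of its 20 nearest tested genes, for each shCdk8 line against cntrl in DMSO (Mediator orange, polymerase blue, gray band the 5th to 95th percentile of neighbor medians over all genes). Med6 and Polr2h lie at the upper right, with neighbor medians of 0.60 and 0.44 in shCdk8-1, while those of Med15 in shCdk8-1 and of Med23 in shCdk8-2 are -0.02 and -0.13.

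Other parts of the transcription machinery are given for comparison, as counts of genes called in shCdk8-1 and then in shCdk8-2 cells in DMSO. Of all genes tested, 30.1% and 29.0% were called higher and 29.5% and 28.1% lower. The subunits particular to RNA polymerase I had 5 and 4 of 6 higher and 0 lower, led by Polr1b (0.42) and Cd3eap (0.42) in shCdk8-1 and Twistnb (0.44) and Cd3eap (0.39) in shCdk8-2 cells. Those particular to RNA polymerase III had 6 and 4 of 11 higher and 0 lower, with Polr3g at 0.51 and 0.45 and Polr3d at 0.26 in shCdk8-1. Of the 2 subunits shared by polymerases I and III, Polr1d rose by 0.21 in each line and Polr1c by 0.13 in shCdk8-2. The kinase module had Cdk19 higher and Cdk8 and Ccnc lower of 6 tested in each line. The factors TFIIA, TFIIB, TFIIE and TFIIF, which assemble with the polymerase, had 4 of 7 higher in each line and 1 and 2 lower, with Gtf2e1 at 0.72 and 0.58 and Gtf2f1 at 0.35 and 0.31. TFIID, which binds the core promoter, had 2 and 4 of 13 higher and 1 and 3 lower, with Taf5 at 0.48 and 0.60 and Taf2 at -0.22 and -0.28. TFIIH, which opens promoter DNA, had 3 and 6 of 10 higher and 1 and 2 lower, with Gtf2h3 at 0.36 and 0.50 and Ercc3 at -0.40 and -0.35. Pausing and elongation factors had 5 and 4 of 16 higher and 3 and 4 lower, with Nelfa at 0.38 and 0.30 and Ell at -0.55 and -0.51. SnxB called 1 of these genes, Nelfa (0.17), in cntrl cells, 0 in shCdk8-1 cells and 1, Cdk19 (0.17, adjusted p = 0.0407), in shCdk8-2 cells.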

How the data were processed

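RNA-seq was performed on 18 libraries of E0771 cells. The authors trimmed reads with Trimmomatic, mapped them with STAR to GRCm38 (GENCODE M13) and counted them by strand on exons with featureCounts 1.5.1, per the file headers, and the deposited values are raw counts per gene, not normalized or pooled. Reads with several locations or genes are left out by that program's defaults. In R 4.3.3, one edgeR 4.0.16 quasi-likelihood fit covered all 18 libraries in 6 groups, after filterByExpr (minimum count 10, minimum total 15) and TMM scaling, with p-values adjusted by Benjamini-Hochberg across all 12772 tested genes and calls at 0.05, and SEs were derived from the F statistic. The 12 genes described by library are the 5 largest called changes in each shRNA comparison in DMSO, the 3 largest in others, and Polr2a, Med14 and Med1. Med19 and other members were named after their values were seen. From each list without members, the 2 genes with the smallest adjusted p in each shRNA comparison in DMSO were named, and 1 of them is not reported here. The members and gene lists were chosen with earlier results of these data known. Alternatives were DESeq2 1.42.0, other scalings, filters, thresholds and samples fitted, a replicate block, and each library left out. The code was tested on simulated data. RefSeq promoters and figures (matplotlib 3.10.9) were added. Intervals cover the spread between libraries. Replicate pairs differed by more than sampling noise (chi-square per gene 1.62 to 17.5 over 18 pairs).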

Additional observations from a re-analysis of the deposited data

Results flagged for a closer look

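The following subunits differed between the shCdk8 lines by a direct test of the difference in DMSO (shCdk8-2 against shCdk8-1, edgeR, Benjamini-Hochberg adjusted p under 0.05, n = 3 per line), which means that the changes against cntrl were unequal. Med15 differed by 0.47 on the log2 scale, as it was lower in shCdk8-1 alone. Polr2g differed by 0.25, Polr2j by 0.24 and Med21 by 0.29, each higher in shCdk8-2. The Med21 call was lost with the length index as a covariate (0.18, adjusted p = 0.0595) and kept in 14 of 18 fits with a library left out. Med23 (-0.30), Med16 (-0.22) and Med22 (-0.15) were lower in shCdk8-2. The hairpin and the population of cells cannot be told apart in these differences.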

How the results depend on the processing

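Among the 945 refits of 35 results on named subunits, 920 kept direction and call, 24 kept the direction but lost the call, and 1 reversed: Polr2a in shCdk8-2 against cntrl under SnxB, at 0.039 with the length index as a covariate. Only results called in the main fit were refitted. For each, 18 refits leave out 1 library, mostly one outside the groups compared, which can hardly change the call. The count of 920 is a description and not a test of stability. The lost calls concern Med14, Med21, Med31 and Polr2a. With a 2-fold threshold the counts of called subunits were 0 in the 4 shCdk8 comparisons and between the lines, and with an adjusted p under 0.01 the count between the lines was 4. For SnxB in cntrl cells, 1 subunit (Polr2a) was called with no filter, with only the groups compared in the fit, with a loess length correction or with the length index, and without shCdk8-1 replicate 2 in DMSO. For SnxB in shCdk8-1 cells and for the interaction of SnxB and shCdk8-1, 1 (Polr2a) was called with no filter. The cause was not tested. Over 10 nearest genes the medians around Polr2h were 0.68, 0.50 and 0.77 (shCdk8-1 and shCdk8-2 in DMSO, shCdk8-1 under SnxB). Leaving out each library in turn gave 13 to 17 and 11 to 16 called subunits for shCdk8-1 and shCdk8-2 in DMSO, 14 to 17 and 10 to 17 under SnxB, 6 to 9 between the lines, 0 to 1 for SnxB in cntrl and in shCdk8-1 cells (Med21 without shCdk8-1 replicate 1 under SnxB), and 0 to 0 for SnxB in shCdk8-2 cells and both interactions. The length index and the loess length correction were chosen after seeing the data. The latter gave 3 higher and 6 lower between the lines, and library totals 17 higher and 1 lower for shCdk8-2 under SnxB. The matching splits of all genes are not given here. The labels' replicate numbers were used throughout, but the headers of the shCdk8-2 count files carry 2, 3 and 3 for the libraries labelled 1, 2 and 3, so the pairing check, the block and the shCdk8-2 replicates named rest on the labels. These numbers did not pair the libraries: same-numbered libraries correlated at -0.133 to 0.208, and in 0 of 8 comparisons did every library correlate best with its own number. With the replicate block the counts were 17 and 16 in DMSO, 0, 0 and 0 for SnxB, 17 and 16 under SnxB, 7 between the lines and 0 and 0 for the interactions. Of all genes, that block called 59.4% and 57.0% in DMSO, 5.28%, 1.38% and 1.91% for SnxB, and 60.4% and 56.7% under SnxB. Between the lines it called 20.7% of all genes, and for the interactions 0.305% and 0.0861%. Counts of Polr2k and Polr2l were low, and 21.6% and 21.0% of their 50-base stretches also lie in transcripts of other genes. The part of depth and of shared sequence in these low counts was not tested.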
